A study of Homo sapiens with 6 samples.

Results

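Tight junction genes were followed in HaCaT cells, an established human keratinocyte line that became immortal without an added oncogene, with the gene SDR42E1 intact or knocked out. The 9 members are the claudin genes CLDN1, CLDN4, CLDN7 and CLDN12, the occludin gene OCLN, F11R, which encodes the junctional adhesion molecule JAM-A, and the scaffold genes TJP1, TJP3 and CGN. They were taken by name from the 46287 rows of the deposited count table. All 9 were found, and all 9 passed the filter on low counts that left 12293 genes for testing. RNA was sequenced from 3 libraries of wild-type control cells and 3 libraries of HaCaT cells in which CRISPR/Cas9 editing had knocked out SDR42E1 on both alleles, per the labels. Both groups grew as monolayers in the same serum-containing medium and were harvested at 70 to 80% confluency. The labels name biological replicates; nothing in them tells if these were separate cultures, or if the knockout cells were 1 edited clone, so the p-values here cover only library-to-library spread. The study asked how loss of SDR42E1, a short-chain dehydrogenase linked to serum vitamin D, changes the transcriptome of keratinocytes.

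Tight junctions seal the space between neighbouring epithelial cells near their apical side. Claudins are small membrane proteins with 4 transmembrane segments that form the strands and set which ions and solutes can pass. Occludin and tricellulin are membrane proteins of another family in the same strands, JAM-A is an immunoglobulin-type adhesion protein, and the ZO proteins and cingulin link the strands to actin and myosin. In epidermis the junctions lie in the granular layer, and claudin-1 is needed there for the barrier against water loss. RNA levels give no measure of junction assembly or of barrier function, neither of which was analysed here.

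Library totals ran from 11504473 to 16928201 counts. SDR42E1 itself was lower in each knockout library (23.2, 20.1 and 20.7 CPM, counts scaled by sequencing depth) than in each control library (46.8, 47.6 and 48.8 CPM), a log2 fold change of -1.16 (SE 0.08; edgeR's quasi-likelihood test, adjusted p = 2.689e-14). Keratinocyte markers were abundant in both groups: KRT5 stood at 2698 ± 124 CPM in control and 1709 ± 67.5 CPM in knockout cells (SD, n = 3 each), and all 14 keratinocyte markers passed the filter on low counts. Markers of simple epithelium were abundant too, with a summed CPM of 5028 to 5083 in control and 5105 to 5586 in knockout libraries for 6 genes. Summed CPM was low for fibroblast, endothelial and leukocyte markers. It was 4.63 to 6.25 in control and 1.30 to 2.45 in knockout libraries for 8 fibroblast genes. For 8 endothelial genes it was 3.65 to 4.40 and 1.92 to 2.81, and for 7 leukocyte genes 1.14 to 2.49 and 1.14 to 2.59. The fibroblast markers DCN and PDGFRA, the endothelial marker TIE1 and the leukocyte markers CD3E and CD79A had no count in any library. Melanocyte markers summed to 24.2 to 25.2 CPM in control and 19.4 to 23.7 CPM in knockout libraries, of which MITF gave 21.3 and 19.2 CPM on average, and TYR had no count. In bulk RNA, fewer cells of a type and less RNA per cell cannot be told apart.

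Of the 9 members, 4 were higher in the knockout (CLDN4, CLDN12, OCLN and TJP1), 4 were lower (CLDN1, F11R, TJP3 and CGN), and CLDN7 did not pass the threshold. Passing means an adjusted p under 0.05 over all genes tested, which 50.4% of genes did in this comparison, 24.6% as higher and 25.8% as lower. The median log2 fold change of the 9 was 0.03, against -0.0040 for all genes tested. The median size of the change, whatever its sign, was 0.41 among the members and 0.23 among all genes tested. In 8 of the 9 members the 3 knockout libraries did not overlap the 3 control libraries, which held for 56.5% of all genes tested. TJP3 was the 1 member that both passed and changed by at least 2-fold, as 7.14% of genes tested did.

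**Figure D1:**
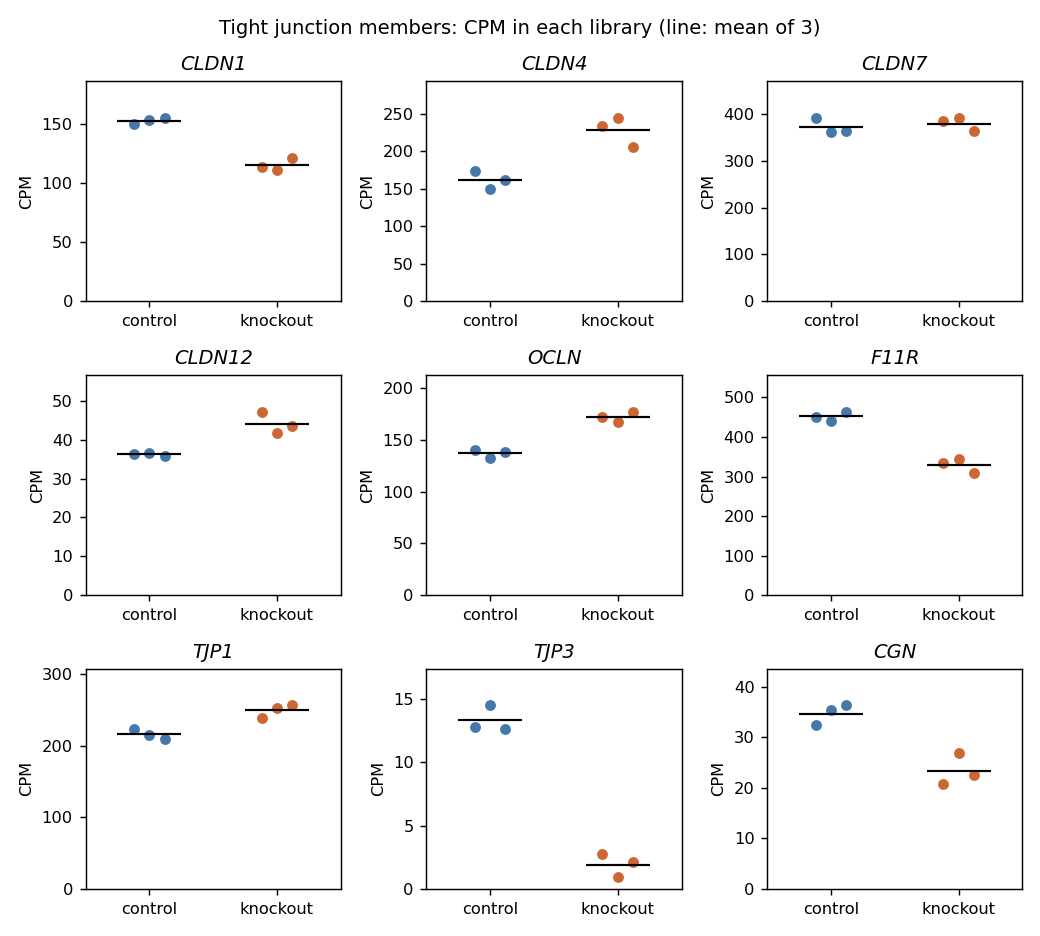
CPM of each member (vertical axis, from 0) in the 3 control and 3 knockout libraries, 1 point per library, with a line at the mean of 3. The groups overlap in CLDN7 alone, and TJP3 falls from 12.7 to 14.5 CPM in control libraries to 0.911 to 2.77 CPM in knockout libraries.

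Promoters of the 3 scaffold genes, which moved in different directions, and of CLDN7, which did not pass, are shown as the 250 bases before a RefSeq start (GRCh38.p14), 5′ to 3′ on the strand of the gene. Capitals mark the E-box CAGGTG, or CACCTG for its other strand, a motif bound by the repressors SNAI1, SNAI2, ZEB1 and ZEB2.
TJP1, chr15:29969050-29969299, minus strand: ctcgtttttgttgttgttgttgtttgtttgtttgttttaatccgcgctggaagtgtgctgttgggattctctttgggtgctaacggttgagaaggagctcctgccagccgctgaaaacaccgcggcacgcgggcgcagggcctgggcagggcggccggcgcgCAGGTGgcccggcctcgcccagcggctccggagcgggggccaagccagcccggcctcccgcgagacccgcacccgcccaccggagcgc
TJP3, chr19:3721487-3721736, plus strand: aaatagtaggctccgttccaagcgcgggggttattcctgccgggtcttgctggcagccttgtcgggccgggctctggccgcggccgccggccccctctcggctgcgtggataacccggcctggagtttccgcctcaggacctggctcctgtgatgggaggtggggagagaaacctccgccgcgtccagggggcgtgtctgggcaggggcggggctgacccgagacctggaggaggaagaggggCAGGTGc
CGN, chr1:151511137-151511386, plus strand: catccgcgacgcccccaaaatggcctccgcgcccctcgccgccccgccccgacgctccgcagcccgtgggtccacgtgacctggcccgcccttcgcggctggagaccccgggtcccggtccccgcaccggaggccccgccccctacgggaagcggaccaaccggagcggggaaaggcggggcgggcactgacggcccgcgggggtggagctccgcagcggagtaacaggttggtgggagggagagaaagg
CLDN7, chr17:7263214-7263463, minus strand: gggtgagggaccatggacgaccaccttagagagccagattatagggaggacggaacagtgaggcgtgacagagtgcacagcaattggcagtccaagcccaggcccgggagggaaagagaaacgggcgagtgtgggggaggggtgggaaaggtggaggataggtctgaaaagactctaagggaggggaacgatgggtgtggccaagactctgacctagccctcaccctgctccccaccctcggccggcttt

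The E-box of TJP1, which was higher in the knockout, begins 88 bases before the start, and that of TJP3, which was lower, 7 bases before it. The CGN window and this CLDN7 window held 0. A second CLDN7 window, chr17:7262479-7262728, held 4 and is not shown. RefSeq gave 14 windows for the members other than F11R, and 5 of the 14 held at least 1 E-box: those named above, and both OCLN windows. Because genes have several starts, these windows can be transcribed from starts further upstream. Of the 5 windows with an E-box, that of TJP1 alone held no annotated exon (GENCODE release 29). The second CLDN7 window and 1 OCLN window lay wholly in exons, 250 of 250 bases, and the TJP3 window shown and the other OCLN window had 120 exonic bases each. The single windows of CLDN1, CLDN4 and CLDN12 held 0, and so did the other 3 TJP1 windows and the other TJP3 window. Among all 35116 windows of this length 17.5% held at least 1, and 0.464% held 3 or more. A match describes these letters and does not show binding. Apart from SNAI2, the binding factors named above were scarce in these libraries. SNAI1 had 2 counts over the control and 3 over the knockout libraries, ZEB2 had 3 and 1, and ZEB1 had 6 and 19, all under the filter. SNAI2 was expressed and rose from 21.5 ± 3.36 to 28.6 ± 0.994 CPM (SD, n = 3; log2 fold change 0.42, SE 0.10; edgeR's quasi-likelihood test, adjusted p = 0.0005745). Whether SNAI2 has a part in the changes of the members was not tested.

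Claudin genes split in direction. CLDN1, which encodes the barrier claudin of epidermis and lies on chromosome 3 (190305701 to 190322475, minus strand, GRCh38 as for all positions here), read 150, 154 and 155 CPM in control libraries and 114, 111 and 121 CPM in knockout libraries. The highest knockout library stayed below the lowest control library. Its mean fell from 152.9 ± 2.85 to 115.3 ± 5.44 CPM (SD, n = 3), a log2 fold change of -0.41 (SE 0.05, adjusted p = 2.963e-08, which like every other adjusted p of a gene comes from edgeR's quasi-likelihood fit).

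CLDN4, on chromosome 7 from 73799542 to 73832693, encodes a claudin of many epithelia that is found in the upper epidermal layers. It read 174, 150 and 162 CPM in control libraries and 234, 244 and 206 CPM in knockout libraries, with each knockout library above each control library. The rise was 1.41-fold (log2 0.50, SE 0.06, adjusted p = 9.992e-07), the largest rise among the members. Counts of CLDN4 per count of CLDN1 were 1.16, 0.973 and 1.04 in the control libraries and 2.06, 2.20 and 1.70 in the knockout libraries. This ratio does not depend on how libraries are scaled. It rose 1.87-fold, from 1.06 ± 0.0946 to 1.98 ± 0.261 (SD, n = 3; exact permutation p = 0.1, two-sided, the smallest that 3 against 3 allows). The pair sets a member that rose over one that fell, each without overlap between groups. Separation of the ratio follows from that choice, so its p-value adds no support.

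CLDN7, on chromosome 17 (7259903 to 7263983, minus strand), encodes another claudin common to many epithelia. It read 391, 362 and 362 CPM in control and 384, 390 and 363 CPM in knockout libraries, and the groups overlapped. On the log2 scale the difference was 0.03 with an SE of 0.05 (adjusted p = 0.6683). Under upper-quartile scaling it was -0.0025. CLDN7 overlaps 2 neighbours in the annotation, ELP5 on the opposite strand by 38 exonic bases and a readthrough locus on its own strand by 269 bases. The latter had 7 counts over all 6 libraries.

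CLDN12, on chromosome 7 from 90383721 to 90513402, encodes a claudin that lacks the usual C-terminal motif for binding ZO proteins. Its values were 36.3, 36.7 and 36.0 CPM in control libraries and 47.3, 41.7 and 43.5 CPM in knockout libraries. The control libraries lay close together, and all knockout libraries stood above them. The rise was 1.21-fold (log2 0.28, SE 0.08, adjusted p = 0.00265). Exons annotated to CLDN12 share 347 bases with GTPBP10 and 201 bases with CDK14, both on the same strand. GTPBP10 rose by 0.29 on the log2 scale, and CDK14 had a value of 0.52 (adjusted p = 0.04256, but up to 0.1324 over the other settings, past 0.05 in 7 of 13). No source used here states how the authors' counting assigned reads in those bases, so CLDN12 is less certain than the other claudins.

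Per length of exon, CLDN7 made up most of the RNA of the 4 claudin members. Its share of their counts per kb was 64.7 ± 0.741% in control and 63.7 ± 0.163% in knockout cells (SD, n = 3). The share of CLDN1 fell from 18.1 ± 0.951% to 13.2 ± 1.12%, and that of CLDN4 went from 14.9 ± 0.639% to 20.3 ± 1.06%. CLDN12 held 2.34 ± 0.0936% and 2.75 ± 0.198%. In CLDN1, CLDN4 and CLDN12 the knockout libraries did not overlap the control libraries (exact permutation p = 0.1 each, the smallest possible), and for CLDN7 the exact permutation p was 0.2. The 4 shares of a library add up to 100%, so they are not independent. Their summed level was 224 to 240 CPM per kb in control and 229 to 245 CPM per kb in knockout libraries, and these ranges overlapped.

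**Figure D2:**
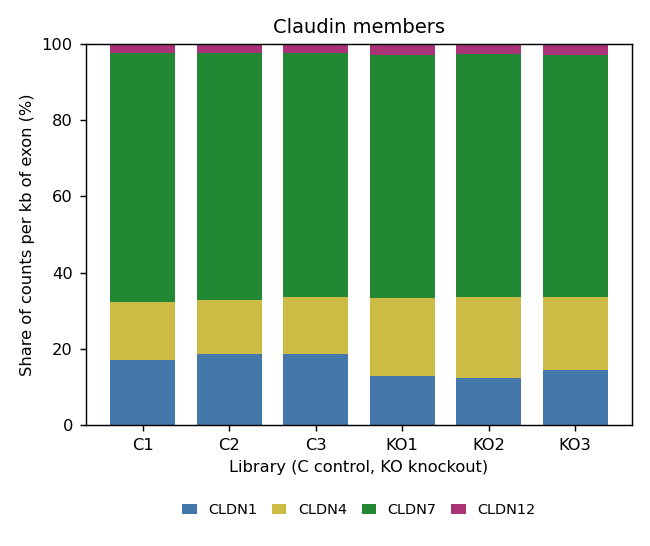
Share of counts per kb of exon (vertical axis, percent) held by each of the 4 claudin members in each of the 3 control (C) and 3 knockout (KO) libraries, with bars stacked to 100%. CLDN4 takes a larger share in knockout libraries, 20.3% on average against 14.9%, and CLDN1 a smaller one, 13.2% against 18.1%.

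The other 20 claudin genes were rare in these cells. Only 5 of them passed the filter on low counts, and 6 had no count in any library (CLDN9, CLDN10, CLDN19, CLDN22, CLDN25 and CLDN34). Of the 5 tested, 2 were lower, 0 were higher and 3 did not pass, beside 25.8% lower and 24.6% higher among all genes tested. CLDN8 fell from 2.05 ± 0.363 to 0.532 ± 0.215 CPM (log2 -1.94, SE 0.41, adjusted p = 0.0001448). CLDN16, a claudin known from magnesium transport in the kidney, had a value of -0.99 (adjusted p = 0.03965, or from 0.02229 to 0.1961 over the other settings tried), and lost its call under DESeq2, limma-voom, no filter, the replicate block and with any 1 library left out except control replicate 1. CLDN23 read 6.07 ± 0.754 CPM in control and 8.03 ± 1.27 CPM in knockout cells (adjusted p = 0.05235, from 0.03591 to 0.2843 over the settings), and CLDN15 read 1.66 ± 0.254 and 1.09 ± 0.375 CPM (adjusted p = 0.1873).

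Occludin and JAM-A RNA moved in opposite directions. OCLN, on chromosome 5 from 69492292 to 69558104, encodes the first membrane protein found in tight junction strands. It read 141, 133 and 138 CPM in control libraries and 172, 167 and 178 CPM in knockout libraries. Every knockout library was above every control library, and the rise was 1.26-fold (log2 0.33, SE 0.05, adjusted p = 9.966e-07). A pseudogene copy of part of the gene, OCLNP1, lies on the same chromosome from 71074225 to 71093193. Reads that match both could have been lost or split, and the deposited count table had no row for OCLNP1.

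F11R, on chromosome 1 (160995211 to 161021348, minus strand) encodes an adhesion protein that also recruits polarity proteins to young junctions. It read 451, 442 and 464 CPM there and 334, 345 and 308 CPM in knockout libraries. The fall, from 452.5 ± 11.4 to 329.3 ± 19.3 CPM (SD, n = 3), was -0.46 on the log2 scale (SE 0.05, adjusted p = 4.511e-10). A readthrough locus that joins F11R to its neighbour TSTD1 (ENSG00000270149) shares 1853 exonic bases with F11R and had its own row, with 14.6% as many counts as F11R. It fell as well, by 0.30 on the log2 scale (SE 0.07, adjusted p = 0.0002814). With both rows added together, an alternative chosen after seeing the data, the log2 ratio of mean CPM was -0.44. Counts of OCLN per count of F11R went from 0.312, 0.300 and 0.298 in control libraries to 0.514, 0.484 and 0.577 in knockout libraries (exact permutation p = 0.1, two-sided, the smallest possible). This pair too sets a riser over a faller, so the p-value adds no support.

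Among 10 further genes of tight junction membrane proteins, 6 were tested, of which 1 rose, 4 fell and 1 did not pass, with a median log2 fold change of -0.31. Among all genes tested 24.6% were higher and 25.8% lower. LSR, which encodes angulin-1 of the contacts where 3 cells meet, rose from 37.0 ± 1.77 to 50.5 ± 0.934 CPM (log2 0.45, SE 0.07, adjusted p = 4.009e-06). MARVELD2, which encodes its partner tricellulin, fell from 71.8 ± 0.668 to 60.2 ± 2.98 CPM (log2 -0.25, adjusted p = 0.001093). MARVELD3, of the occludin family, fell by 0.44 on the log2 scale (adjusted p = 0.0009932) and CXADR, the coxsackie and adenovirus receptor, by 0.38 (adjusted p = 0.0001304). JAM3, of the JAM family, fell from 5.34 ± 1.02 to 1.38 ± 0.587 CPM (log2 -1.96, SE 0.29, adjusted p = 5.244e-07). In the occludin family, then, OCLN rose while MARVELD2 and MARVELD3 fell. In the JAM family F11R and JAM3 fell, and JAM2 had 14 counts over the control and 1 over the knockout libraries, under the filter.

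**Figure D3:**
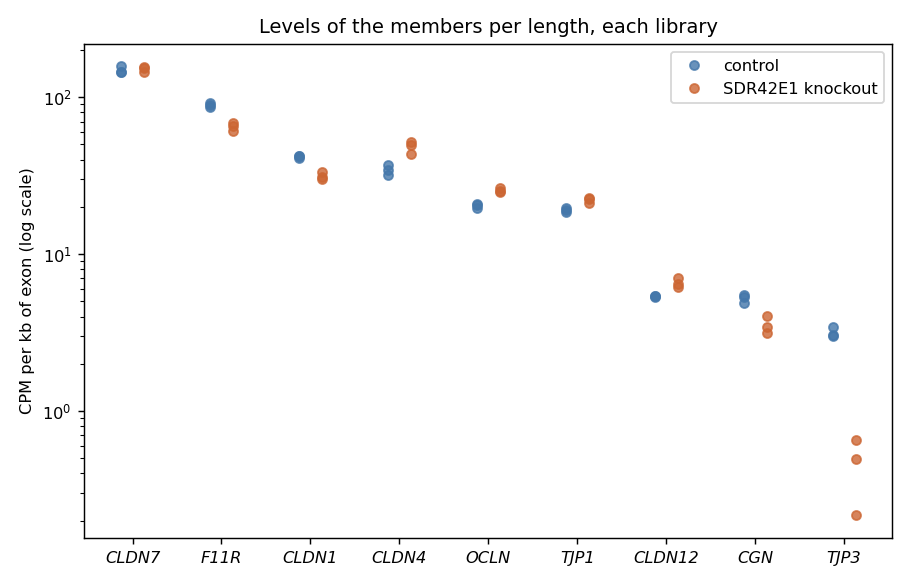
Level of each member in CPM per kb of annotated exon (log axis), 1 point per library, control and SDR42E1 knockout side by side, ordered by the control mean. CLDN7 and F11R lead in both groups. On this length-scaled axis CLDN1 lies above CLDN4 in control and below it in knockout libraries.

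Among the scaffold genes, TJP3 had the largest change of any member. TJP3, on chromosome 19 from 3708109 to 3750813, encodes ZO-3, the ZO protein confined to epithelial cells. It had 178, 251 and 156 counts in the control libraries and 32, 12 and 24 counts in the knockout libraries. These are 12.8, 14.5 and 12.7 CPM against 2.77, 0.911 and 2.10 CPM, and the groups lay far apart. The fall was 7.04-fold (log2 -2.82, SE 0.22, adjusted p = 3.575e-11). Of the 12293 genes tested 101 had a more negative fold change. Knockout replicate 2 was the lowest library. Without it the log2 fold change was -2.45, and without knockout replicate 1, the highest of the 3, it was -3.17. The genes whose log2 CPM most resembled that of TJP3 over the 6 libraries, among 10659 others, were BCAT1, CACUL1 and ANP32E (Pearson's r from 0.9984 to 0.9989, as a description). Their own log2 fold changes were -0.55, -0.21 and -0.47, because such a correlation takes no account of the size of a change. The 6 points share the split between control and knockout.

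TJP1, on chromosome 15 (29699367 to 29968865, minus strand), encodes ZO-1, the scaffold that binds claudins, occludin and JAM-A. It read 223, 216 and 210 CPM in control libraries and 239, 253 and 257 CPM in knockout libraries. The groups did not overlap, and the rise of 1.15-fold was the smallest change that passed among the members (log2 0.21, SE 0.05, adjusted p = 0.0004547).

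CGN, on chromosome 1 from 151510510 to 151538692, encodes cingulin, which links ZO proteins to myosin and to RhoA regulators. It read 32.5, 35.4 and 36.4 CPM in control libraries and 20.8, 26.9 and 22.7 CPM in knockout libraries. All knockout libraries were lower, and the fall was -0.56 on the log2 scale (SE 0.09, adjusted p = 4.267e-06). The counts of TJP1 per count of CGN went from 6.88, 6.09 and 5.76 to 11.5, 9.41 and 11.3 (exact permutation p = 0.1, the smallest possible). Again a riser was set over a faller, so the p-value adds no support. CGNL1, which encodes the related paracingulin, had 3 counts over the control and 4 over the knockout libraries, under the filter.

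In control cells the order of the members per kb of exon was CLDN7 (149 ± 6.80 CPM per kb), F11R (89.3 ± 2.26), CLDN1 (41.7 ± 0.777), CLDN4 (34.4 ± 2.58), OCLN (20.3 ± 0.610), TJP1 (19.2 ± 0.602), CLDN12 (5.39 ± 0.0536), CGN (5.25 ± 0.309) and TJP3 (3.16 ± 0.245). Neighbours in this order overlapped between libraries in the pairs OCLN with TJP1 and CLDN12 with CGN, and the other 6 pairs did not overlap. In knockout cells CLDN4 (48.5 ± 4.22 CPM per kb) stood above CLDN1 (31.5 ± 1.49), OCLN (25.5 ± 0.770) lay clear of TJP1 (22.2 ± 0.808) and CLDN12 (6.55 ± 0.425) clear of CGN (3.55 ± 0.469). TJP3 was last at 0.457 ± 0.223 CPM per kb. Lengths are unions of annotated exons in GENCODE release 29, and transcripts in use may be shorter. The control order of CLDN1 and CLDN4 depends on these lengths (3663 and 4702 bases). Without them CLDN4 had the higher control mean, 161.8 against 152.9 CPM.

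Several members lie in parts of the genome where most genes were lower in the knockout, so each was set beside the tested genes that start within 5 Mb of it. F11R had 62 such genes with a median log2 fold change of -0.26, of which 55 were below 0, and its own value lay 0.19 below that median. CGN, on the same chromosome arm, had 137 with a median of -0.29, of which 123 were below 0, and lay 0.27 below it. CLDN7 had 105 neighbours with a median of -0.26, of which 88 were below 0, and stood 0.29 above that median. The SD among neighbours was 0.43, 0.55 and 0.38, larger than each of these 3 distances. Whether the falls of F11R and CGN belong to those of their neighbourhoods was not tested.

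The other 6 members lay among genes with medians above 0, except that TJP1 had a median of -0.09 over the 7 genes within 2 Mb. TJP3 had 144 neighbours with a median of 0.08 and an SD of 0.50, and its value was 2.89 below that median. CLDN1 had 28 neighbours with a median of 0.16 (SD 0.50), and lay 0.57 below it. CLDN4 had 37 neighbours with a median of 0.05 (SD 0.50), and stood 0.45 above it. OCLN (43 neighbours, median 0.12), CLDN12 (30 neighbours, median 0.14) and TJP1 (20 neighbours, median 0.12) exceeded their medians by 0.21, 0.14 and 0.09, less than the SD among the neighbours in each case.

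**Figure D4:**
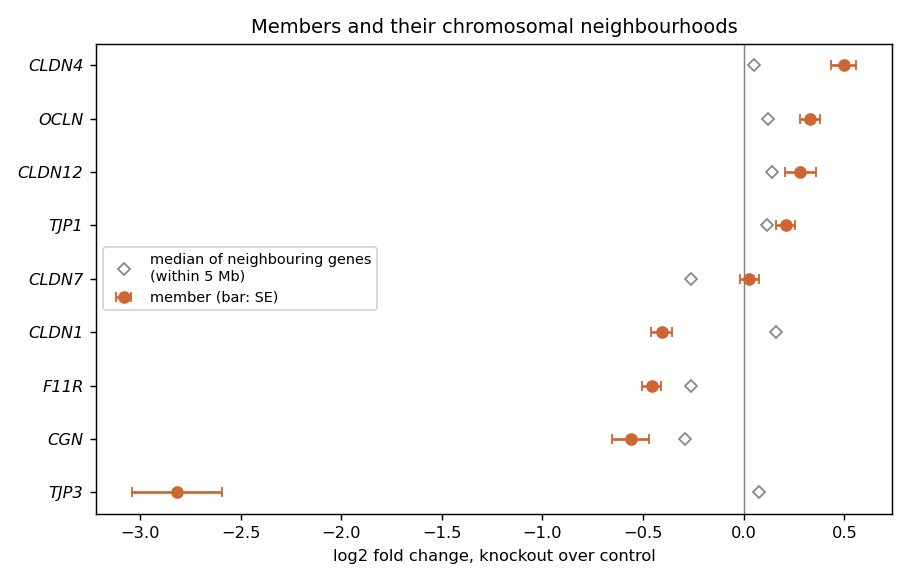
Log2 fold change (knockout over control) of each member with its SE, and the median of the tested genes that start within 5 Mb (open diamonds). TJP3 and CLDN1 are low beside neighbourhoods with medians of 0.08 and 0.16, while F11R and CGN are low beside neighbourhoods that are low too.

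Among 27 further genes of plaque and polarity proteins, 26 had a row in the deposited counts and 24 were tested. Of these 24, 5 rose, 9 fell and 10 did not pass (median log2 fold change 0.02). The shares over all genes tested were 24.6% higher and 25.8% lower. MPDZ, which encodes the many-PDZ scaffold MUPP1 that binds claudins and JAM-A, had 39, 54 and 35 counts in the control libraries and 0 in each knockout library. Taking 3 counts over the 3 knockout libraries as the upper limit, MPDZ was at least 35.5-fold lower (adjusted p = 1.122e-10), and the list's median with MPDZ at that bound was also 0.02. Its paralog PATJ, a stable part of the Crumbs complex, read 147 ± 3.03 and 158 ± 4.23 CPM and did not pass (adjusted p = 0.08153).

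Angiomotin genes, whose products bind PATJ and MUPP1 at junctions and also hold YAP out of the nucleus, split in direction. AMOT fell from 8.88 ± 0.490 to 2.23 ± 0.210 CPM (log2 -1.98, SE 0.20, adjusted p = 1.565e-10). AMOTL1 rose from 218 ± 12.8 to 365 ± 16.8 CPM (log2 0.75, SE 0.05, adjusted p = 3.718e-15), and AMOTL2 by 0.49 on the log2 scale (adjusted p = 4.83e-05). RAB13, a small GTPase of junction trafficking, fell by 0.83 (adjusted p = 1.907e-06). It is among the neighbours of CGN described above, most of which were below 0, and whether its fall belongs to theirs was not tested. Among polarity genes PARD3 (log2 -0.30), PARD6A (-0.57), PRKCZ (-0.38), LLGL1 (-0.45, adjusted p = 3.581e-07) and LLGL2 (-0.31) fell, SCRIB (0.20) and DLG1 (0.15) rose, and PRKCI had a value of -0.07 (adjusted p = 0.2112). Of these, 3 lost their calls under some settings: PRKCZ with DESeq2 or without knockout replicate 2 (adjusted p up to 0.06433), SCRIB without control replicate 1 (0.06162), and DLG1 without control replicate 2, control replicate 3 or knockout replicate 3 (up to 0.05194).

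Junctional actomyosin genes, which contract the ring attached to tight junctions, had 6 higher, 5 lower and 8 not past the threshold of 19 tested (median log2 fold change 0.09). Over all genes tested these calls made up 24.6% and 25.8%. MYLK, the myosin light chain kinase linked to loosening of tight junctions, fell from 64.7 ± 2.83 to 25.1 ± 3.33 CPM (log2 -1.37, SE 0.08, adjusted p = 1.594e-16). The nonmuscle myosin heavy chain gene MYH9 rose by 0.49 (SE 0.05, adjusted p = 1.597e-11), while its paralog MYH14 fell by 0.68 (SE 0.07, adjusted p = 6.686e-11). DNMBP, which encodes Tuba, an activator of CDC42 that binds ZO-1, rose by 0.64 (SE 0.07, adjusted p = 1.172e-09). CDC42 and RHOA had values of 0.04 and 0.02 that did not pass, and the sign of RHOA turned under upper-quartile scaling.

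Of 16 transcription factor genes linked to tight junction genes in epithelia, 12 were tested, with 3 higher, 4 lower and 5 not past the threshold (median -0.12). For comparison, 24.6% of all genes tested were higher and 25.8% lower. GRHL2, a grainyhead factor that activates claudin genes, fell from 134 ± 5.85 to 98.5 ± 4.17 CPM (log2 -0.45, SE 0.05, adjusted p = 1.194e-08). ELF3, an epithelial ETS factor, fell from 168 ± 13.4 to 113 ± 5.84 CPM (log2 -0.57, SE 0.06, adjusted p = 2.872e-10). TP63, the master factor of stratified epithelia, rose by 0.25 (adjusted p = 0.000172) and TFAP2A by 0.45 (adjusted p = 0.0003326), beside SNAI2. OVOL2 fell from 3.65 ± 0.647 to 1.87 ± 0.278 CPM (adjusted p = 0.003316). EHF had a value of -0.13 (adjusted p = 0.02265) with overlapping groups, and lost its call without control replicate 2, control replicate 3 or knockout replicate 2 (adjusted p up to 0.1354).

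**Figure D5:**
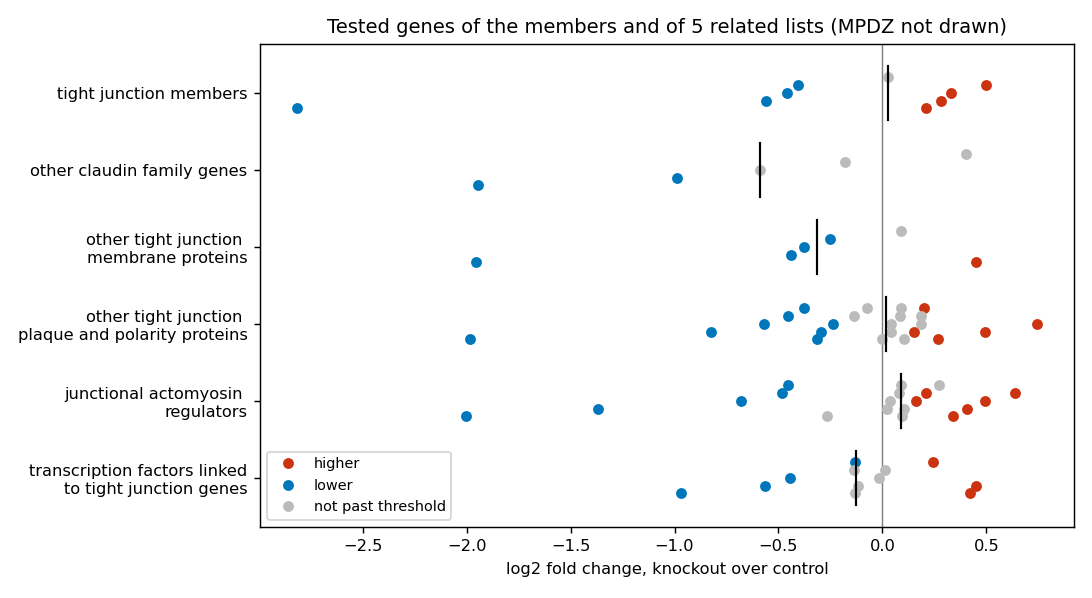
Log2 fold change (horizontal axis) of each tested gene of the 9 members and of 5 related lists, coloured by call at an adjusted p of 0.05, with a line at each list's median. Points are spread vertically for legibility only. Each list with more than 5 tested genes holds both higher and lower genes, and MPDZ, with 0 knockout counts, is left out of the drawing.

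Markers of the wider epithelial state moved in both directions, as did all genes tested, with 24.6% higher and 25.8% lower. Of 14 keratinocyte markers 8 rose, 2 fell and 4 did not pass, and CDH1, the adherens junction cadherin, stood at 0.03 on the log2 scale (adjusted p = 0.6731), a value whose sign turned under upper-quartile scaling and without knockout replicate 3. KRT6A (log2 1.26), KRT17 (0.66) and LAMB3 (0.65) rose and KRT5 fell (-0.66). KRT15 fell further, from 1207 ± 113 to 340 ± 24.1 CPM (log2 -1.83, adjusted p = 2.25e-12). KRT6A may share reads with its near-identical family members. Of 6 markers of simple epithelium, where CLDN4 and CLDN7 are also typical, 4 rose, 1 fell and 1 did not pass. The rise of KRT7, 0.15 on the log2 scale, lost its call without control replicate 3 or knockout replicate 2 (adjusted p up to 0.05786). KRT8 rose by 0.77, KRT18 by 1.36 and EPCAM, which binds claudin-7, by 0.23 (adjusted p = 0.000232), while KRT19 fell by 1.59 (adjusted p = 6.441e-26). Among genes that mark other cell types, COL3A1 fell (log2 -4.33, from 2.36 ± 0.817 to 0.117 ± 0.202 CPM). It had 0, 0 and 4 counts in the knockout libraries, and its value ran from -8.04 to -3.71 over the settings. VWF had a value of -0.98 (adjusted p = 0.0315, but 0.1299 under DESeq2 and above the threshold with any 1 library left out except control replicate 1). COL1A1, CDH5, PMEL and MITF had values of -0.59, -0.48, -0.47 and -0.15 that did not pass. The part of these markers in the changes of tight junction genes was not tested.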

How the data were processed

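RNA from 6 HaCaT libraries, 3 per group, was prepared with a stranded total RNA kit per the labels' protocols. What the authors deposited is a single table of raw counts, genes by libraries. The submitters' processing notes name GRCh38 as build; the sources used here do not give the aligner, the counting tool or its strand setting. Table columns were matched to samples by name.

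The test was edgeR 4.0.16 (R 4.3.3): filterByExpr with minimum count 10 and minimum total 15, TMM scaling, a robust two-sided quasi-likelihood F test, and Benjamini-Hochberg adjustment over 12293 genes at 0.05. A fold change is knockout over control in log2 units, its SE is |log2 fold change| divided by the root of F, and CPM rests on TMM-adjusted library sizes. In simulated counts (12185 genes, 50 changed per size), 68% of the 1.25-fold changes were recovered, 70% of the 1.5-fold, 92% of the 2-fold and 100% of the 4-fold, with 6 calls among unchanged genes. Far fewer genes were changed there than passed in the data (50.4%), so these rates need not hold for this comparison.

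Positions and exon lengths are those of GENCODE release 29. Neighbours had to reach a mean log2 CPM of 2. Named were the members, SDR42E1, up to 4 genes per list with the smallest adjusted p, and the 3 genes most correlated with the member of smallest adjusted p; other names were chosen after their values were seen. Members and lists were chosen with earlier results of these data known, and 2 genes of these lists are not reported here. Alternatives were DESeq2 1.42.0, limma-voom (limma 3.58.1), RLE and upper-quartile scaling, other filters, other neighbour windows, the replicate block and leaving out each library. Within each group, libraries differed beyond sampling noise (chi-square over its degrees of freedom 2.65 to 4.49).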

Additional observations from a re-analysis of the deposited data

How the results depend on the processing

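Under every planned setting 8 of the 9 members had the same direction and the same call; CLDN7, never past the threshold, had a log2 fold change of -0.0025 with upper-quartile scaling (adjusted p = 0.9714), against 0.03. The counts of 4 members higher and 4 lower held under every setting. Over all settings TJP3 ran from -3.17 to -2.45, CGN from -0.67 to -0.48, F11R from -0.49 to -0.41, CLDN1 from -0.44 to -0.38, TJP1 from 0.18 to 0.24, CLDN12 from 0.23 to 0.32, OCLN from 0.30 to 0.35 and CLDN4 from 0.44 to 0.57. The members' median was 0.0075 to 0.066 without 1 library each. All genes past the threshold numbered 5315 with DESeq2, 6425 with the replicate block and 5338 to 6074 without 1 library, against 6197; of all calls, 43.4% were higher with upper-quartile scaling and 48.8% without. Of 44 genes followed one by one, 40 kept direction and side; the others were CLDN7, CLDN16, CLDN23 and VWF.

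Among the other claudins 2 were called, and 1 with DESeq2, limma-voom or no filter (1 lower each). RLE scaling and the replicate block added 1 higher (CLDN23), and the block left 1 lower. Without 1 library each, 1 to 2 were called, with 0 to 1 higher and 1 to 2 lower. Of the endothelial markers 1 was called, and 0 with DESeq2 or no filter, and 0 to 1 without 1 library each. Libraries of equal number were not treated as pairs, because the labels do not say that these numbers pair cultures. Deviations from the group means were uncorrelated between such libraries (0.0155, -0.0889 and -0.0145), and the replicate block changed no member's call. Counts of 32, 12 and 24 limit the precision of TJP3 in knockout libraries.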
